A study of Mus musculus with 6 samples.

Results

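Lamina contact was followed around 8 genes that mark fibroblasts, the connective tissue cells studied here: Col1a1, Col1a2, Col3a1, Fn1, Postn, Vim, Thy1 and Pdgfra. The genes are defined by name, with no threshold on the signal, and each was located by a fixed point on the mm9 build of the mouse genome. All 8 points were covered. For 6 genes the spacing of GATC sites in the RefSeq promoter windows within 150 kb recurred among the fragment ends and put the point inside the gene. The windows around Col3a1 and Pdgfra held too few sites for this check. Exons and introns at the points are not given, because no annotation of mm9 was used here. Every restriction fragment between neighbouring GATC sites with its middle within 100 kb of a point was used, 3805 fragments of 6414976 on chromosomes 1 to 19, X and Y, and a wider view took 1 Mb either side (39742 fragments). Of the 8 genes, 5 encode proteins of the extracellular matrix, 2 encode surface proteins, and Vim encodes vimentin, a filament protein of the cytoplasm that is neither.

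Type I collagen, made of the products of Col1a1 and Col1a2, and type III collagen, from Col3a1, are the fibres that fibroblasts lay down, and fibronectin (Fn1) and periostin (Postn) join these fibres to each other and to cells. Thy1 is a lipid-anchored surface glycoprotein and Pdgfra a receptor for platelet-derived growth factor, and both are used with vimentin to recognise fibroblasts. In most cell types the chromatin that lies against the nuclear lamina, the meshwork of lamin filaments under the inner nuclear membrane, is poor in active genes, and genes can leave or join it as cells differentiate.

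All cells were mouse embryonic fibroblasts of wild type C57BL/6 genotype that had been given a lentiviral short hairpin RNA, selected with puromycin and then transduced with another lentivirus carrying the bacterial adenine methylase Dam, alone or fused to a lamin. The study held 6 libraries, which make 3 maps of 1 Dam-only and 1 fusion library each: LmnA RNAi read with Dam-LmnB1, LmnC RNAi read with Dam-LmnB1, and LmnB1 RNAi read with Dam-LmnA. The first pair of maps share a fusion, so by their labels they differ in the targeted isoform of the Lmna gene. In any contrast with the LmnB1 RNAi map the target and the fusion cannot be told apart. With 1 map per knockdown there was no replicate, no test was possible and no p-value is given. RNA and protein were not measured, so neither the depletion of a lamin nor the activity of these genes could be read from the data, and a map of cells without a hairpin was not analysed here.

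Dam methylates the adenine of GATC, so a promoter reports on the lamina only through the GATC sites around it. To show how little of this readout can come from a promoter itself, the 250 bases upstream of the start site are given for genes that differ in this respect, from RefSeq on the GRCm38.p6 build, all on the plus strand, 5′ to 3′, with GATC in capitals. RefSeq entries were matched for 5 of the genes, with 6 start sites in all. The coordinates of this build are not those of mm9 and are not compared with them.
Vim, chr2:13574061-13574310: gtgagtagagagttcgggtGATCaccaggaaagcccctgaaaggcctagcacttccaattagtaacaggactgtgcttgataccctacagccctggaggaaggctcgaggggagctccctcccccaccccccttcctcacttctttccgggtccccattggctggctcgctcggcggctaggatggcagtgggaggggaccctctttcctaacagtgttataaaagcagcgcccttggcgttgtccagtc
Postn, entry 1, chr3:54359017-54359266: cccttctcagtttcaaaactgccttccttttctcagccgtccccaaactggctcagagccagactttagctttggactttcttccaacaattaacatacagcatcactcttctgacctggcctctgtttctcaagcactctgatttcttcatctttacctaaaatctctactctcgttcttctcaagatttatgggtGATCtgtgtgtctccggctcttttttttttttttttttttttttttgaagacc
Postn, entry 2, chr3:54360857-54361106: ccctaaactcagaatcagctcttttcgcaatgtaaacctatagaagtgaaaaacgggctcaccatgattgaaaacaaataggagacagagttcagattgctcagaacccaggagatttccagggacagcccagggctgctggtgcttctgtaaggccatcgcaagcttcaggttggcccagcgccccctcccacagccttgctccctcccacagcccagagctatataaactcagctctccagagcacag
Col1a2, chr6:4505368-4505617: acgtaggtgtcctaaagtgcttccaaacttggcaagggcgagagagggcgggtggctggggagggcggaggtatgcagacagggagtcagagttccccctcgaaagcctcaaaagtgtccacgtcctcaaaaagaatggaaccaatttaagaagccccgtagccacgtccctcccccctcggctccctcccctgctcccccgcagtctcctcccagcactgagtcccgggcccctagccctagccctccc
The Vim window holds 1 GATC site, at -231 counted from the start site, and the window of Postn entry 1 holds 1, at -53. No site lies in the window of Postn entry 2 or in those of Col1a2, Col3a1 and Pdgfra. Of 32851 RefSeq promoter windows of 250 bases, 41.9% hold the motif, which reads the same on both strands. Col1a1, Fn1 and Thy1 had no matched entry. The measurements below are therefore means over the 384 to 534 fragments within 100 kb of a gene, where the median window of that width held 494. Col1a2 was covered by the fewest fragments (384, with 0.52% of windows holding fewer) and Col1a1 by the most.

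The value of a fragment is the log2 ratio of fusion to Dam-only reads, with an offset per map. Equal reads give -0.34, 0.21 and -0.15 under LmnA, LmnC and LmnB1 RNAi. A lower mean therefore says that Dam alone marked the stretch more relative to the fusion. The sign of a mean near 0 does not say which of them marked it more. Means were weighted by fragment length. Within 100 kb of a point their standard error (SE) was taken over 20 blocks of 10 kb. Shorter stretches were cut into blocks of 5 kb, 10 of them within 25 kb of a point. Within 1 Mb there were 200 blocks of 10 kb (196 for Pdgfra). The SE describes variation along the sequence and not between cultures. Values were set beside 12825 windows of 200 kb that tile the genome. Because a fragment with reads in 1 library of a map has a log2 ratio beyond 12 in size, the means without such fragments are given too. Those means still hold fragments at the constant of the map, the value that equal reads, or none, in both libraries give. Such fragments were 30.3%, 29.2% and 30.6% of all under LmnA, LmnC and LmnB1 RNAi, and they draw a mean towards that constant.

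All 8 genes lay on the side of low lamina signal in all 3 maps. Each of the 8 points was outside the deposited lamina-associated domains (LADs) in every map, where 30.0% of all window centres were outside in all 3 maps (32.2% under LmnA RNAi, 41.1% under LmnC RNAi and 40.6% under LmnB1 RNAi). The median over the 8 windows was -1.68 under LmnA RNAi, against 1.26 over all windows. It was -3.50 under LmnC RNAi against 0.091, and -2.60 under LmnB1 RNAi against 0.56. The share of all windows with a lower mean ran from 1.40% to 37.2% over the 8 genes under LmnA RNAi, from 2.59% to 32.7% under LmnC RNAi and from 3.13% to 38.5% under LmnB1 RNAi, so each gene was below the median of its map. A mean below 0 was found for 7, 8 and 8 genes, where 33.3%, 49.0% and 42.5% of windows were below 0. Without fragments read in 1 library it was found for 8 in each map, where 40.4%, 50.7% and 47.3% of windows were below 0. Within 25 kb of the points the means were lower still, between -1.31 and -5.68, and negative for all 8 genes in each map. Windows of that width were not tiled over the genome, so no genome-wide share stands beside this count.

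**Figure D1:**
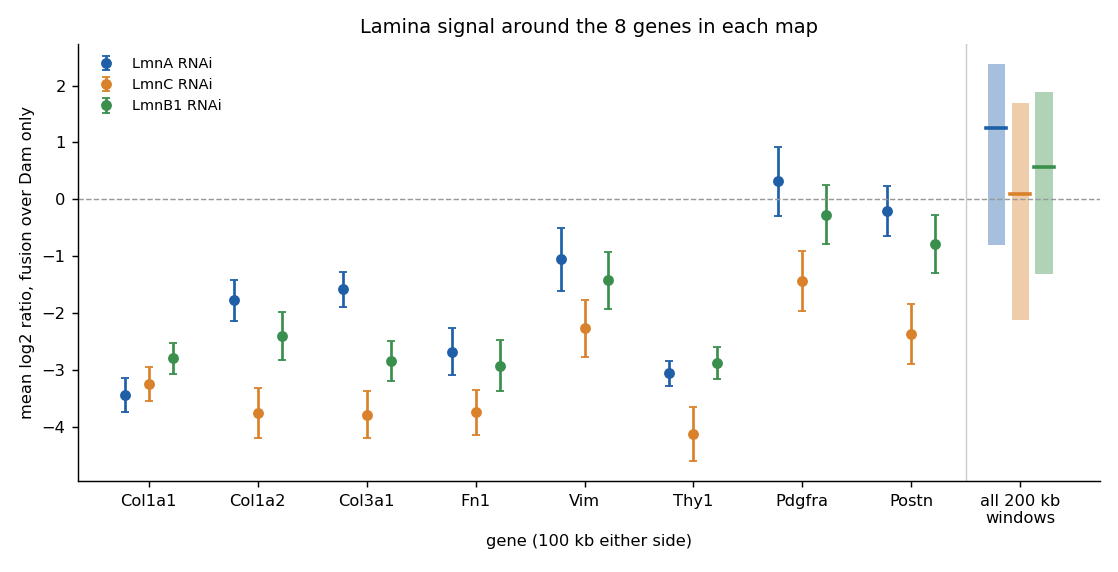
Mean log2 ratio of fusion over Dam-only reads within 100 kb of each gene (vertical axis) in the 3 maps, with bars of 1 SE over 20 blocks of 10 kb; at the right, the median and interquartile range of 12825 windows of 200 kb. The values run from -4.13 at Thy1 under LmnC RNAi to 0.32 at Pdgfra under LmnA RNAi, and each lies below the median of its map.

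The genes of type I collagen were below their map's median in all 3 maps. Around Col1a1 (chromosome 11, 94805000) the mean log2 ratio was -3.44 ± 0.30 under LmnA RNAi, -3.25 ± 0.29 under LmnC RNAi and -2.80 ± 0.27 under LmnB1 RNAi. These 3 values were close together as deposited, but -4.70, -3.34 and -3.36 when each map was centred on its median window, and 1.40% of windows were lower in the LmnA RNAi map. Without fragments read in 1 library they were -1.74, -1.41 and -1.26. Around Col1a2 (chromosome 6, 4475000) the mean was -1.78 ± 0.37 under LmnA RNAi, -3.76 ± 0.44 under LmnC RNAi and -2.40 ± 0.42 under LmnB1 RNAi. Here the LmnC RNAi map was the lowest and the LmnA RNAi map the highest, and this order held without fragments read in 1 library (-1.08, -2.08 and -1.46). Centred, the values were -3.04, -3.85 and -2.96, with LmnC RNAi still the lowest and the other maps nearly equal. Within 25 kb of the point in Col1a2 the mean fell to -3.01 ± 0.43, -5.62 ± 0.53 and -4.09 ± 0.50, in the same order of maps.

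Col3a1 (chromosome 1, 45390000), which lies beside the fibrillar collagen gene Col5a2 in RefSeq, resembled Col1a2. Its mean was -1.58 ± 0.31 under LmnA RNAi, -3.78 ± 0.41 under LmnC RNAi and -2.84 ± 0.36 under LmnB1 RNAi. The LmnC RNAi value was again the lowest, and 5.26% of windows were lower in that map. Without fragments read in 1 library the values were -1.03, -2.01 and -1.52.

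The other matrix genes differed from each other in level. Around Fn1 (chromosome 1, 71665000) the mean was -2.68 ± 0.41 under LmnA RNAi, -3.75 ± 0.40 under LmnC RNAi and -2.92 ± 0.45 under LmnB1 RNAi. Fn1 was low in every map, with 3.13% to 7.03% of windows below it. Its means without fragments read in 1 library were -1.42, -2.01 and -1.74. Centred, the Fn1 values were -3.94, -3.84 and -3.48, so LmnC RNAi was no longer the lowest. Around Postn (chromosome 3, 54180000) the mean was -0.21 ± 0.44, -2.37 ± 0.53 and -0.78 ± 0.51, in the same order. Postn was close to 0 in the LmnA RNAi and LmnB1 RNAi maps and clearly negative under LmnC RNAi, and 22.4% to 31.9% of windows were below it. The level within 25 kb of the point in Postn was -1.31 ± 0.50, -4.98 ± 0.26 and -3.35 ± 0.60, so the 50 kb at the gene were lower than the whole window in each map. The means within 100 kb of Postn without fragments read in 1 library were -0.37, -1.11 and -0.73.

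Vim (chromosome 2, 13500000) had a mean of -1.06 ± 0.55 under LmnA RNAi, -2.27 ± 0.50 under LmnC RNAi and -1.43 ± 0.51 under LmnB1 RNAi. The LmnC RNAi map was again the lowest as deposited, and the SEs were among the largest of the 8 genes. Centred, the Vim values were -2.32, -2.36 and -1.99, with LmnA and LmnC RNAi nearly equal. The Vim means without fragments read in 1 library were -0.98, -1.39 and -0.92.

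The surface genes stood at or near opposite ends of the 8. Around Thy1 (chromosome 9, 43853000) the mean was -3.06 ± 0.22 under LmnA RNAi, -4.13 ± 0.48 under LmnC RNAi and -2.88 ± 0.28 under LmnB1 RNAi. Thy1 was low in every map, with at most 3.62% of windows below it. Its means without fragments read in 1 library were -1.74, -1.80 and -1.50, so the LmnC RNAi value lost most of its distance from the others. Centred, the Thy1 values were -4.32, -4.22 and -3.44, so LmnC RNAi was no longer the lowest. Around Pdgfra (chromosome 5, 75570000) the mean was 0.32 ± 0.61, -1.44 ± 0.53 and -0.27 ± 0.52, in the same order. Pdgfra had the highest mean of the 8 in every map, and its LmnA RNAi mean was the single one above 0. Without fragments read in 1 library its means were -0.45, -0.52 and -0.23, and under LmnA RNAi Postn was then higher. With 50 kb either side Postn was higher than Pdgfra under LmnA RNAi (-1.10 against -1.36) and under LmnB1 RNAi (-1.60 against -1.74). Other means were above 0 under other settings: with equal weights Pdgfra under LmnB1 RNAi (0.50) and Postn under LmnA RNAi (0.078). With 200 kb either side Postn under LmnA RNAi was above 0 as well (0.15). When the 8 genes were ordered by level, no gene differed from its neighbour in the order by more than 1.96 SE of the step in any map.

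Col1a1 and Thy1 had the lowest shares of LAD sequence within 1 Mb in every map, although under LmnC RNAi Thy1 (23.6%) was close to Col3a1 (27.1%). Within 1 Mb of Col1a1 LADs took 6.41% of the sequence under LmnA RNAi and 0% in the other maps. Within 1 Mb of Thy1 they took 24.9%, 23.6% and 22.8% under LmnA, LmnC and LmnB1 RNAi. For the other 6 genes the share was 62.9% to 84.4% under LmnA RNAi, 27.1% to 62.6% under LmnC RNAi and 32.9% to 61.1% under LmnB1 RNAi. All windows of 2 Mb had a mean share of 68.0%, 58.9% and 59.9%. The mean log2 ratio within 1 Mb was lowest for the same genes: it was -2.44 ± 0.11, -3.07 ± 0.10 and -2.25 ± 0.10 for Col1a1. It was -1.66 ± 0.16, -2.57 ± 0.18 and -1.86 ± 0.13 for Thy1. In every map Col1a1 was below Thy1, and Thy1 below the next gene, by more than 1.96 SE, and the remaining 6 did not differ from their neighbours in the order by that much. The SE treats neighbouring blocks as independent, whereas a LAD can span many blocks, so it may be too small. The genes were also ordered by value before the steps were taken, so these steps are descriptions and not tests.

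**Figure D2:**
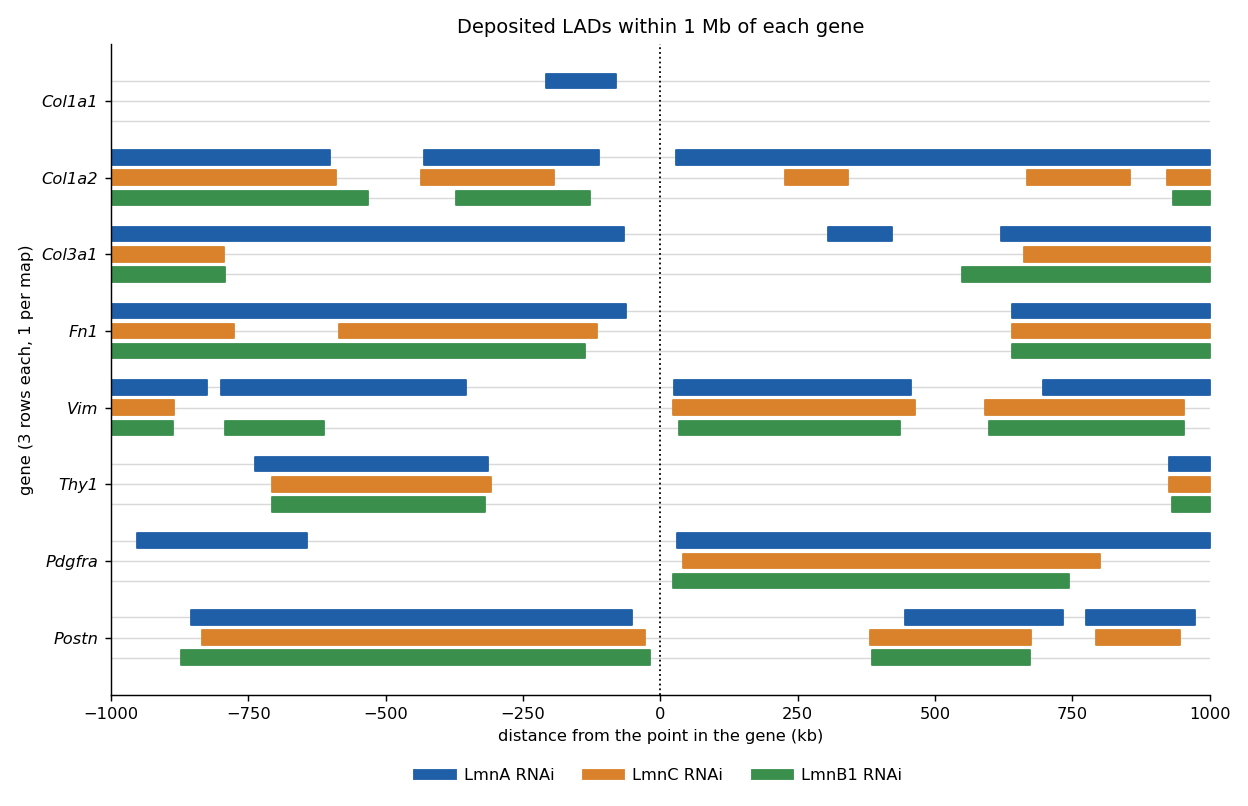
LADs as deposited (bars) within 1 Mb of each gene, by distance from the point in the gene in kb, with 1 row per map. No bar crosses the dotted line at 0, the surroundings of Col1a1 and Thy1 hold few LADs, and those of Vim, Pdgfra and Postn begin a LAD close to the gene in all 3 maps.

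Col1a1 stood in one of the widest gaps between LADs in the genome. The gap spanned 3.60 Mb under LmnA RNAi, 5.38 Mb under LmnC RNAi and 5.31 Mb under LmnB1 RNAi, and 99.1%, 99.5% and 99.6% of the gaps in each map were narrower. A LAD of 128.5 kb, 80.0 kb to the left (the side of lower coordinates), was found under LmnA RNAi alone and shortened the gap in that map. The right border of the gap was nearer in that map too, at 3.52 Mb against 4.29 Mb under LmnC RNAi and 4.21 Mb under LmnB1 RNAi. Thy1 stood in a gap of 1.24, 1.24 and 1.25 Mb, with its left border 314, 308 and 319 kb away and its right border 927, 927 and 931 kb away. Thy1 thus had the same surroundings in all 3 maps at this scale.

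A LAD border lay within 50 kb of the point for 3 of the 8 genes in each map, where 19.3%, 15.3% and 15.3% of the window centres outside LADs had one. These were Vim and Pdgfra in all 3 maps, Col1a2 under LmnA RNAi, and Postn under LmnC RNAi and LmnB1 RNAi. The LAD to the right of Vim, on the side of St8sia6, began 25.3, 22.8 and 35.0 kb away under LmnA, LmnC and LmnB1 RNAi. The LAD to the right of Pdgfra, on the side of Kit, which encodes the receptor for stem cell factor, began 30.7, 41.8 and 23.6 kb away. The LAD to the left of Postn, on the side of Trpc4, an ion channel gene, ended 51.6, 28.1 and 17.8 kb away. Neighbour names are from RefSeq on GRCm38.p6, and whether these neighbours lie inside the LADs was not examined on mm9.

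The sides of these 3 genes differed in every map, the right side being the higher at Vim and Pdgfra and the left side at Postn. From 25 to 100 kb to the left of Vim the mean was -2.93 ± 0.46, -4.02 ± 0.33 and -2.68 ± 0.47 under LmnA, LmnC and LmnB1 RNAi. The same distance to its right gave 1.75 ± 0.39, 0.46 ± 0.38 and 1.03 ± 0.36. The right side, most of it in a LAD, was thus higher than the left in each map. For Pdgfra the left side gave -0.26 ± 0.47, -2.57 ± 0.43 and -0.81 ± 0.49, and the right side 2.48 ± 0.77, 0.91 ± 0.57 and 1.72 ± 0.49. Pdgfra therefore had the same layout as Vim. For Postn the left side was the higher, at 1.72 ± 0.53, 0.25 ± 0.45 and 1.55 ± 0.33, and the right side gave -1.40 ± 0.28, -3.23 ± 0.35 and -1.39 ± 0.38. For all 3 genes the order of the sides held without fragments read in 1 library. These genes were taken for a LAD close by on 1 side, and the LADs belong to the same maps. The higher side was 64.4% to 100% LAD sequence and the lower side 0%, so the order of the sides was largely given in advance.

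**Figure D3:**
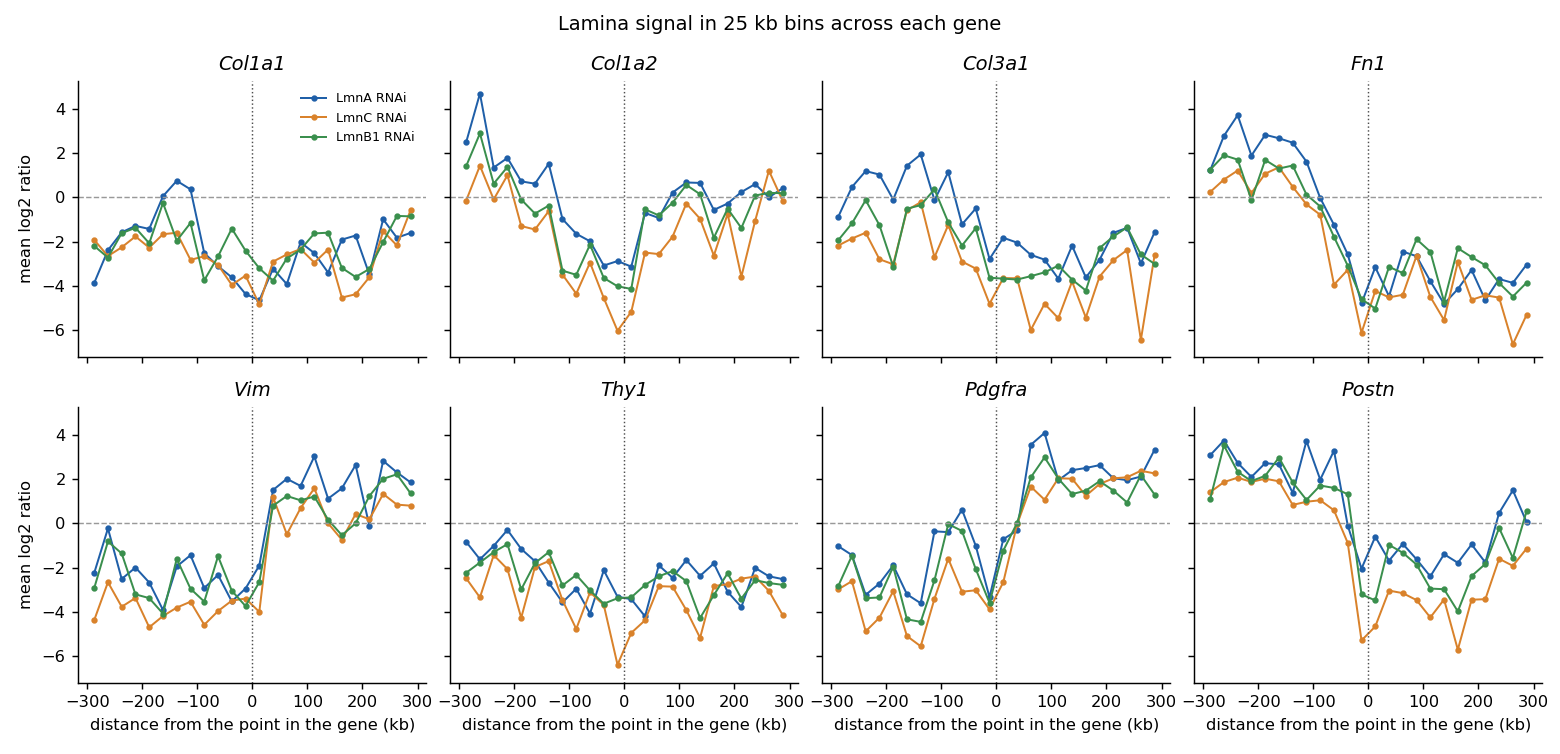
Mean log2 ratio in bins of 25 kb up to 300 kb either side of each gene, by distance from the point in kb, with 1 line per map. The lines rise to the right of Vim and Pdgfra and fall from left to right across Fn1 and Postn, and the lowest bin at Col1a2 is -6.04 under LmnC RNAi.

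The shape of the signal along the sequence was similar between maps. Over 80 bins of 25 kb within 1 Mb (79 for Pdgfra), Pearson's r between the LmnA RNAi and LmnC RNAi maps was 0.83 for Col1a2, 0.89 for Col3a1 and 0.93 for Fn1. Over all pairs of maps it was between 0.83 and 0.93 for the 7 genes other than Col1a1, whose r was 0.54 to 0.64. Neighbouring bins share LADs and fragment density, so these values are descriptions. The bin with the lowest mean within 300 kb touched the point in 2 of the 3 maps at Col1a1 and in all 3 at Col1a2. At Fn1 it touched the point under LmnB1 RNAi alone, and at Thy1 under LmnC RNAi alone. At Col3a1 and Postn it was away from the point in every map. At Vim and Pdgfra it was away from the point in every map, on the side without the LAD.

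Col3a1 and Col1a2 had the most surrounding sequence that lay in a LAD under LmnA RNAi and in neither of the other maps. After LmnA RNAi a LAD of 1.54 Mb began 28.3 kb to the right of the point in Col1a2 (chromosome 6, 4503256 to 6045042). The LmnC RNAi map had its first LAD on that side 226 kb away and the LmnB1 RNAi map 933 kb away. From 25 to 100 kb to the right the mean was -0.47 ± 0.38 under LmnA RNAi, -2.28 ± 0.43 under LmnC RNAi and -0.53 ± 0.19 under LmnB1 RNAi. As deposited, the LmnA RNAi and LmnB1 RNAi signals were nearly equal there, with 96.1% of the stretch in a LAD in the first and 0% in the second. The median windows of these maps are 0.70 apart, and without fragments read in 1 library the values were -0.15 and -0.52. To the left of Col3a1 a LAD of 1.07 Mb ended 66.8 kb away under LmnA RNAi (chromosome 1, 44250131 to 45323228). The nearest LAD on that side was 794 kb away under LmnC RNAi and 792 kb away under LmnB1 RNAi. Within 1 Mb, the sequence in a LAD of the LmnA RNAi map alone was 42.1% at Col3a1, 30.3% at Col1a2, 23.4% at Pdgfra and 18.5% at Vim, against 6.92% of all fragment length. It was 6.41% at Col1a1, 5.21% at Postn, 2.63% at Fn1 and 1.55% at Thy1. Sequence in a LAD of the LmnC RNAi map alone was at most 0.82% and of the LmnB1 RNAi map alone at most 3.53% around any of the 8.

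Fn1 had a fixed border on 1 side. Its left border was 62.4, 115 and 137 kb away under LmnA, LmnC and LmnB1 RNAi, and its right border 641, 640 and 641 kb away. The right border of Fn1 was thus at nearly the same place in all 3 maps, and the left one was closest to the gene under LmnA RNAi.

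Window by window, the LmnA RNAi map was above the LmnC RNAi map at 7 of the 8 genes by more than 0.5 on the log2 scale, where 79.9% of all windows were. The share among these genes is close to that of the genome, whose median window differed by 0.94. For that reason each difference below is also given centred, that is after the median window of each map (1.17 apart in this pair) was set to 0. Past 0.5 in the centred values were 4 of the 8 genes, against 13.0% of windows. Past -0.5 was 1, Col1a1, against 31.0%.

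Col3a1 had the largest difference between LmnA RNAi and LmnC RNAi, at 2.20 ± 0.22 (centred 1.03), and 96.8% of windows differed by less. Postn followed with 2.16 ± 0.31 (centred 0.99) and Col1a2 with 1.98 ± 0.26 (centred 0.81). Pdgfra differed by 1.76 ± 0.32 (centred 0.59), but by 0.070 without fragments read in 1 library. Without such fragments 4 genes differed by more than 0.5, against 19.8% of windows: Col3a1 (0.98), Postn (0.74), Col1a2 (1.00) and Fn1 (0.59). Centred as well, Col1a2 (0.58) and Col3a1 (0.57) were past 0.5, while Postn (0.33) and Fn1 (0.18) were not. Pdgfra then turned to -0.34, and Col1a1 was past -0.5 (-0.75). The share of windows was not computed for values both centred and without such fragments. Vim differed by 1.21 ± 0.28 (centred 0.044). Fn1 differed by 1.07 ± 0.28 and Thy1 by 1.06 ± 0.39, and both differences turned to -0.10 when centred. Vim, Fn1 and Thy1 were nearer to the middle of all windows, of which 67.1%, 58.7% and 58.5% differed by less. Col1a1 was the single gene with a lower value under LmnA RNAi than under LmnC RNAi. Its difference was -0.20 ± 0.30, which is within 1 SE of 0, while 0.90% of windows had a lower one, and its centred value was -1.36. It was positive with equal weights (0.077) and with 200 kb either side (0.70).

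**Figure D4:**
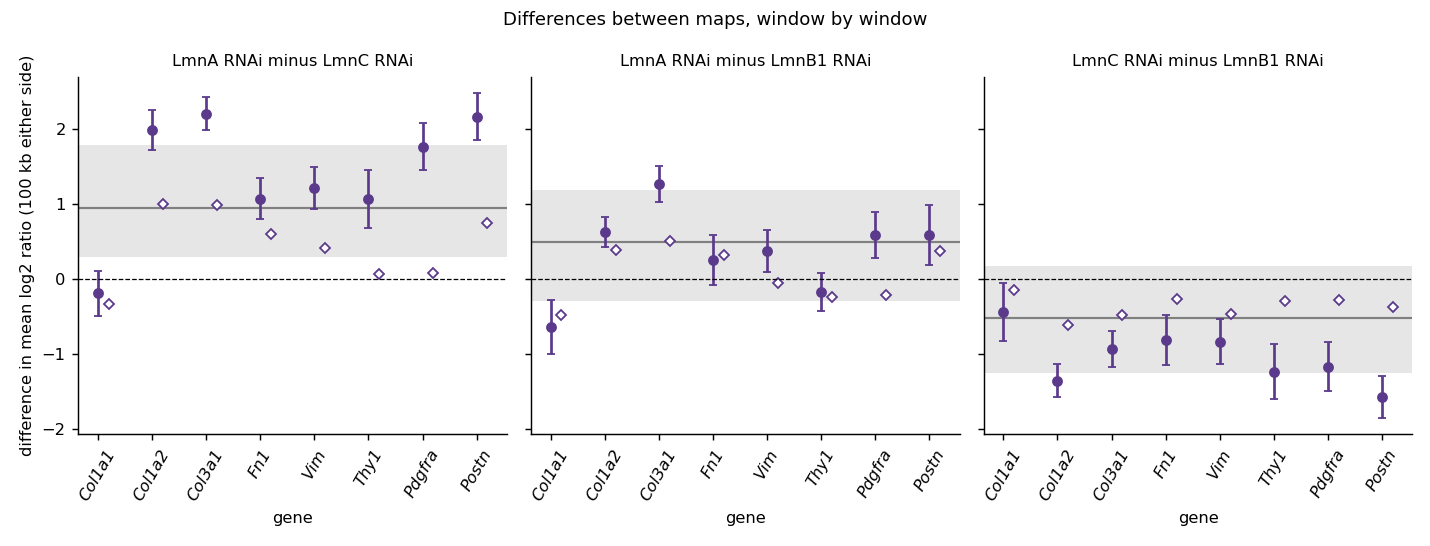
Difference in mean log2 ratio within 100 kb of each gene for the 3 pairs of maps, with bars of 1 SE over 20 blocks (filled circles), and without fragments read in 1 library (open diamonds); the line and band give the median and the 10th to 90th percentile of all windows. In the first panel Col3a1, Postn and Col1a2 lie above the band and Col1a1 below it.

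The LmnA RNAi map was above the LmnB1 RNAi map by more than 0.5 at 4 genes (48.7% of windows) and below it by more than 0.5 at 1, Col1a1 (5.34% of windows). Col3a1 had the largest value, 1.26 ± 0.24, centred 0.56. Col1a1 had the lowest, -0.65 ± 0.36, centred -1.34, and it was 0.031 when 200 kb either side were taken. The 3 other genes past 0.5, Col1a2 (0.62 ± 0.20), Pdgfra (0.59 ± 0.31) and Postn (0.58 ± 0.40), had centred values of -0.078, -0.11 and -0.12. Centred, 1 gene was past 0.5 (Col3a1, 9.50% of windows) and 2 were past -0.5 (Col1a1 and Thy1, 31.9% of windows). Without fragments read in 1 library, 0 genes were past 0.5 (13.5% of windows) and 0 past -0.5 (1.43% of windows). Centred as well, Col1a1 (-0.77), Thy1 (-0.53) and Pdgfra (-0.52) were past -0.5, and the share of windows was not computed for this. The LmnC RNAi map was below the LmnB1 RNAi map by more than 0.5 at 7 genes (51.5% of windows), and at none above it by that much (2.42% of windows). Postn had the largest of these, -1.58 ± 0.28 (centred -1.11), followed by Col1a2 at -1.36 ± 0.22 (centred -0.89). Centred, 4 genes were past -0.5, Pdgfra and Thy1 with these, against 22.6% of windows, and none was past 0.5, against 15.8%. When fragments read in 1 library were left out, 1 gene was past -0.5, Col1a2, against 7.13% of windows. Centred as well, the Col1a2 value was -0.498. The 3 pairs share maps, so their values are not independent of each other.

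Reads could be recovered only on fragments read in 1 library of a map, and there Dam-only reads outnumbered fusion reads in all 3 maps at every gene except Pdgfra and Postn. On these fragments the fusion library supplied 67.8% of reads genome-wide under LmnA RNAi, 41.0% under LmnC RNAi and 52.2% under LmnB1 RNAi. Over all windows of 200 kb the medians were 53 Dam-only and 228 fusion reads under LmnA RNAi. They were 113 and 127 under LmnC RNAi, and 82 and 147 under LmnB1 RNAi. The share of windows with more Dam-only than fusion reads was not computed, so the number of such genes cannot be set beside the genome. At the genes other than Pdgfra and Postn, Dam-only reads ranked from the 77.0th to the 99.7th percentile of windows. Fusion reads at these genes ranked from the 0.60th to the 33.4th percentile. The intervals that follow are exact 95% Clopper-Pearson intervals, and they cover counting error only, since PCR copies cannot be told from separate molecules. Within 100 kb of Thy1 there were 38 fusion and 540 Dam-only reads under LmnA RNAi, a fusion share of 6.57% (4.69% to 8.91%). After LmnC RNAi there were 18 and 825 (2.14%, 1.27% to 3.35%), and under LmnB1 RNAi 11 and 600 (1.80%, 0.90% to 3.20%). On these fragments the Thy1 reads were thus nearly all reads of Dam alone in all 3 maps. Fragments read in both libraries, which this tally leaves out, were 46.4%, 45.6% and 48.7% of the Thy1 fragments in the same order of maps. At Col1a2 the fusion share was 17.2% (12.5% to 22.8%) under LmnA RNAi, 0.78% (0.34% to 1.53%, 8 of 1025 reads) under LmnC RNAi and 4.99% (3.07% to 7.60%) under LmnB1 RNAi. The Dam-only reads of Col1a2 under LmnC RNAi were 9.0 times those of the median window, and those of Col1a1 under LmnA RNAi 13.3 times. At Pdgfra the share was 71.9% (67.2% to 76.2%), 34.8% (29.7% to 40.1%) and 62.4% (57.0% to 67.7%). The genome-wide share was inside the interval under LmnA RNAi, below it under LmnB1 RNAi and above it under LmnC RNAi.

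**Figure D5:**
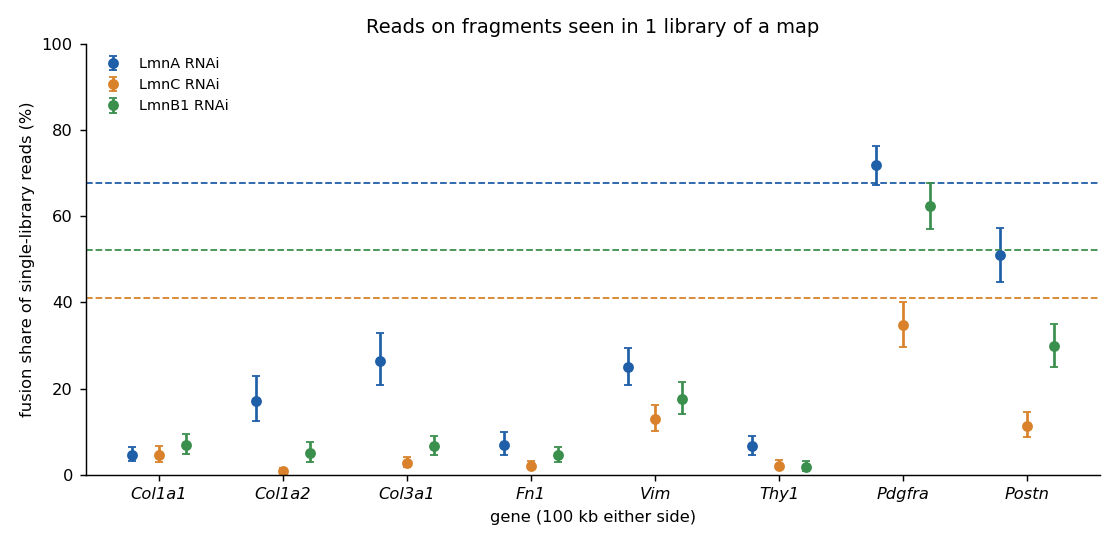
Share of fusion reads (%) among reads on fragments read in 1 library of a map, within 100 kb of each gene, with exact 95% intervals for counting error; dashed lines give the genome-wide share of each map. Pdgfra is near or above the lines in the LmnA RNAi and LmnB1 RNAi maps, Postn reaches 51.0% under LmnA RNAi, and the other 6 genes are at 26.5% or lower.

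Close to the genes some stretches held no fusion read of this kind. The limits given for them are 3 reads of the total, not Clopper-Pearson bounds, and cover only fragments read in 1 library. Within 25 kb of Col1a2 under LmnC RNAi there were 0 fusion reads of 588, which allows a share of up to 0.510%. Within 25 kb of Fn1 there were 0 of 379 under LmnC RNAi (up to 0.792%) and 0 of 323 under LmnB1 RNAi (up to 0.929%). Within 25 kb of Col3a1 there were 0 of 149 under LmnB1 RNAi (up to 2.01%). In the LmnA RNAi map the same stretches held 7 of 75 at Col1a2, 2 of 157 at Fn1 and 7 of 55 at Col3a1. The LmnA RNAi map also had the highest fusion share genome-wide, and the part of that in these values was not tested. Fusion reads were present in all these stretches on fragments with unequal reads in both libraries, which the tally leaves out. Under LmnC RNAi these were 55.2% of fragments at Col1a2 and 54.3% at Fn1. Under LmnB1 RNAi they were 58.6% at Fn1 and 57.8% at Col3a1. How many stretches of this width genome-wide held no fusion read of this kind was not computed.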

How the data were processed

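DamID compares methylation of GATC sites by a Dam-lamin fusion with that by Dam alone. Reads were aligned with Bowtie to mm9, per the submitters' processing notes; no source used here gives the version, the filters or the LAD caller. Signal was deposited as a log2 ratio for each of 6581229 GATC fragments, of which 6414976 on chromosomes 1 to 19, X and Y were used. From their steps, the deposited log2 values compare fusion with Dam-only reads, each raised by 1e-05, and hold an offset per map (-0.34, 0.21 and -0.15 after LmnA, LmnC and LmnB1 RNAi). Fragments beyond 12 in size were taken as read in 1 library, and their recovered reads were whole within 0.02 in 100% of values up to 100 reads. These fragments held 1442271 to 3031313 reads per library, and total depth is unknown. The deposited LAD lists (1768, 1807 and 1764) give start and end positions in bp.

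Length-weighted means, distances and windows (at least 50% covered) were computed with Python 3.11.15, numpy 2.4.6, pandas 2.3.3 and scipy 1.17.1, and the scripts were tested on simulated data. All 8 genes are named by rule and no other gene was ranked. The genes, lists and windows were chosen with earlier results of these data known. Alternatives changed the treatment of fragments, weights, widths, centring and LAD lists. A list of other matrix genes was not used, since no annotation of mm9 was used here.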

Additional observations from a re-analysis of the deposited data

How the results depend on the processing

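Of the 78 values of summary results under other settings, 64 stayed within the spread or count limit of the main value and 14 moved. The median difference between LmnA and LmnB1 RNAi, under 0.5 in size, changed sign when centred (0.47 to -0.23). All 8 genes stayed below the median of all windows in each map under the 6 settings run for that count. The median level over the 8 genes moved without fragments read in 1 library (-1.61 after LmnC RNAi, -1.36 after LmnB1 RNAi), with 1 read added to such fragments (-1.62 and -1.41) and with equal weights (-4.67 and -4.00). Centred, the LmnA RNAi median was -2.94 and the median difference between LmnA and LmnC RNAi 0.32. With LADs of at least 300 kb the median LAD share after LmnC RNAi was 33.0%, and within 500 kb the shares were 48.6%, 37.1% and 30.3% after LmnA, LmnC and LmnB1 RNAi. Counting any LAD base within 25 kb of the point gave 1 gene after LmnC RNAi (Vim) and 2 after LmnB1 RNAi (Pdgfra and Postn). Of 336 single-gene values, 249 stayed, 79 moved and 8, past 0.5 in size, reversed. Those in LmnA RNAi minus LmnB1 RNAi were Pdgfra (-0.22 without fragments read in 1 library, -0.14 with 1 read added, -0.11 centred), Col1a1 (0.031 with 200 kb either side), Col1a2 (-0.078 centred) and Postn (-0.12 centred). Those in LmnA RNAi minus LmnC RNAi were Fn1 and Thy1 (both -0.10 centred). Differences under 0.5 in size also changed sign: in LmnA RNAi minus LmnB1 RNAi, Fn1 (-0.45 centred), Vim (-0.33 centred, -0.057 without fragments read in 1 library, -0.025 with 1 read added) and Thy1 (0.81 with equal weights, 0.019 with 50 kb and 0.11 with 200 kb either side); in LmnA RNAi minus LmnC RNAi, Col1a1 (0.70 with 200 kb either side, 0.077 with equal weights); and in LmnC RNAi minus LmnB1 RNAi, Col1a1 (0.020 centred). Levels under 0.5 in size changed sign as well. Those of Pdgfra were under LmnA RNAi (-0.45 without fragments read in 1 library, -0.36 with 1 read added, -1.36 with 50 kb either side, -0.94 centred) and under LmnB1 RNAi (0.50 with equal weights). That of Postn was under LmnA RNAi (0.078 with equal weights, 0.15 with 200 kb either side). The cause was not tested. No paired analysis was possible because each group is 1 library and no result comes from a test. Fragments carry few reads, a median of 1 on those read in 1 library, so only means over many fragments were compared, and levels of single promoters could not be read.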

Other observations

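When the fragments within 100 kb were split by turn into odd and even ones, the difference between LmnA RNAi and LmnC RNAi at Postn was 2.17 and 2.15. At Col3a1 it was 1.81 and 2.60, and at Col1a2 2.33 and 1.59. At Vim it was 0.53 and 1.80, the widest spread among the 8 genes, and at Col1a1 it was -0.38 and -0.04. Odd and even fragments come from the same libraries and lie side by side, so they are not replicates. Within 1 Mb the LmnA RNAi mean exceeded the LmnC RNAi mean at all 8 genes, by 0.63 to 1.88, where the median window of 2 Mb differed by 0.95. The value at Col1a1 was therefore negative within 100 kb and positive within 1 Mb.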
